A study of Homo sapiens with 20 samples.

Results

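HEL cells, a human erythroleukaemia line whose label gives it as a JAK2 V617F mutant line, were given BI-D1870, an inhibitor of the RSK kinases, and their RNA was compared with that of cells given the solvent DMSO. The comparison was chosen by the column headings of one deposited count table and holds 4 of the 20 libraries of the series, 2 with BI-D1870 and 2 with DMSO. The series followed HEL cells given BCI, BI-D1870 or both, beside HEL cells that persisted under JAK2 inhibitors. Its 10 groups of 2 libraries came in 3 count tables, and only the table with BI-D1870 was used.

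All the cells compared were HEL cells in RPMI with serum and antibiotics, all carried the JAK2 V617F label, and all were collected after 24 h by the labels. The control group had DMSO alone. The treated group had 10 µM BI-D1870. A further group of the same table, 2 libraries from cells given 10 µM BI-D1870 together with 1 µM BCI for 24 h, entered the same model and is set beside the results where stated. BCI blocks the ERK phosphatase DUSP6 and the related DUSP1. There was 1 dose and 1 time of BI-D1870, HEL is 1 line, and no second RSK inhibitor or RSK knockdown was in these groups.

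RSK kinases are serine and threonine kinases that ERK and PDK1 switch on when growth factor and cytokine receptors signal through RAS. They phosphorylate ribosomal protein S6, transcription factors such as CREB1, FOS and SRF, and regulators of translation, cell death and the cell cycle, and the related MSK kinases phosphorylate CREB1 and histone H3 in the nucleus. In blood cells with an active JAK2, STAT5 and the RAS-ERK pathway both carry the signal, and ERK output is read from immediate-early genes and from feedback inhibitors such as the DUSP phosphatases. BI-D1870 competes with ATP at the RSK kinases and also binds other kinases, PLK1 among them.

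The 6 libraries of the table held 54141164 to 70128404 counts, so that 3 counts, the limit that a count of 0 allows, stood for 0.0422 to 0.0562 CPM, counts scaled to a library of a fixed size. This floor covers counting error only. Of 55093 genes, 21328 passed the filter on low counts and were tested. Biological variation between replicates came to a coefficient of 5.01%, and the correlation of log CPM was 0.997 between the 2 DMSO libraries and also between the 2 BI-D1870 libraries. The labels speak of treatment in duplicate and do not say that replicates were separate cultures, so the p-values rest on a spread between libraries that may be technical. The cells had the marker genes of an erythroleukaemia line with platelet lineage features. Per length, HBG2, GATA1, KLF1 and ITGA2B stood at 2954, 185, 132 and 243 FPKM with DMSO. Of defining markers of other lineages, MS4A1 had no count in any of the 4 libraries, MPO had at most 2, CD3E at most 7, CD14 at most 14 and EPCAM at most 16. Other genes of the same marker lists were expressed, among them SPI1 at 120.0 and 113 CPM, CD4 at 34.2 and 36.1 CPM, MS4A2 at 20.9 and 25.1 CPM and CD2 at 14.7 and 15.8 CPM with DMSO.

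BI-D1870 moved a large share of the transcriptome. At an adjusted p under 0.05 (edgeR quasi-likelihood test, Benjamini-Hochberg), 10045 genes were called, 47.1% of those tested. Of these 4867 rose (22.8%) and 5178 fell (24.3%). Falls were the more frequent among large changes, with 719 genes at least 2-fold higher (3.37%) and 1723 at least 2-fold lower (8.08%), and with 192 at least 4-fold higher against 655 at least 4-fold lower. Among the 11277 genes that averaged 4 CPM or more, 35.4% rose and 32.5% fell, 191 rose and 544 fell at least 2-fold, and the median log2 fold change was 0.02. Over all genes tested the median was -0.01. In 10024 of the 10045 called genes both libraries of one group stood above both of the other. How many of all tested genes were apart in this way was not computed, so this count adds no support to the calls. The shares of risen and fallen genes given above are the background for the gene groups that follow.

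**Figure D1:**
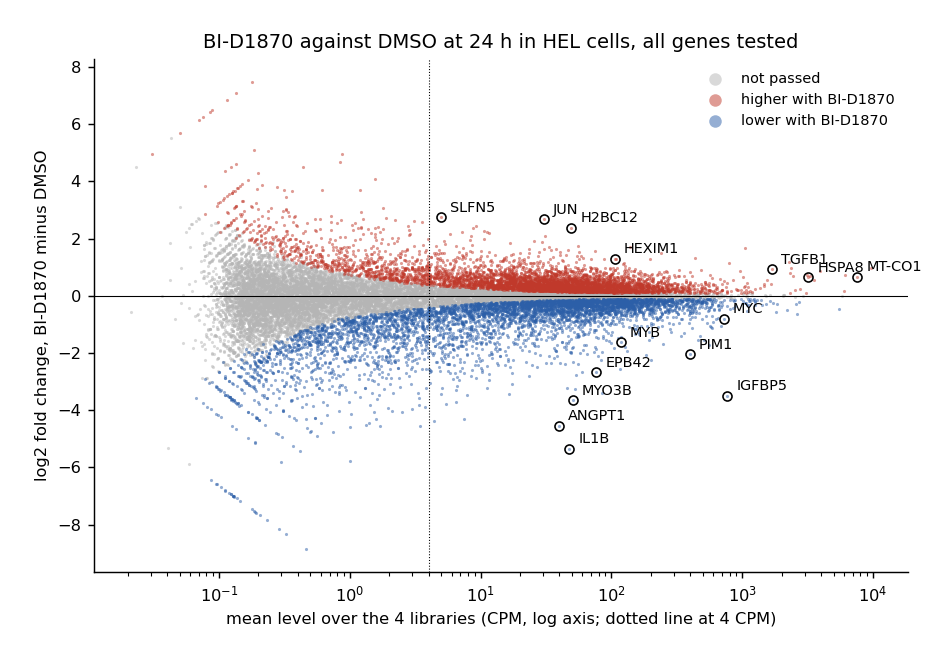
Log2 fold change of BI-D1870 minus DMSO (y axis) against the mean level over the 4 libraries in CPM on a log axis (x axis) for the 21328 genes tested. Red points passed the test and were higher, blue points passed and were lower, grey points did not pass. IL1B, ANGPT1 and IGFBP5 lie far below the other genes of their level, and JUN and H2BC12 far above.

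The target family came first. RPS6KA1, which encodes RSK1, had the most counts of the RSK and MSK genes and rose, from 251 and 264 CPM with DMSO to 354 and 348 CPM with BI-D1870, a log2 fold change of 0.45 ± 0.04 (SE, n = 2 per group, adjusted p = 1.24e-08). RPS6KA3 (RSK2) fell by 0.12 on the log2 scale, from 116 and 114 to 108 and 103 CPM. The MSK genes RPS6KA4 and RPS6KA5 fell by 0.23 and 0.28. RPS6KA2 and RPS6KA6, the other RSK genes, were not tested, with at most 8 and 1 counts in these 4 libraries. Of the 4 tested genes of the RSK and MSK list 1 thus rose and 3 fell, against 22.8% and 24.3% of all genes tested. Among genes that averaged 4 CPM or more, as these 4 did, 35.4% rose and 32.5% fell. The falls of RPS6KA3 and RPS6KA5 did not pass in 9 and 6 of 15 alternative settings, among them those without replicate 2 of DMSO (-0.14 and -0.11), of BI-D1870 (-0.05 and -0.31) or of the pair (-0.09 and -0.24), in each of which 1 gene of the list fell. RPS6KA3 also lost its call without DMSO replicate 1 (-0.11), and RPS6KA5 without BI-D1870 replicate 1 (-0.21). The inhibitor acts on kinase activity, and these values concern transcripts only.

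Of 22 RAS-ERK pathway kinases and adaptors, the route into RSK, 10 rose (45.5%) and 7 fell (31.8%). Among genes that averaged 4 CPM or more, 35.4% rose and 32.5% fell. The median of the list was 0.11 and its range -0.59 to 0.92. PDPK1, the kinase PDK1 that primes RSK, rose from 20.3 and 23.3 to 42 and 40.4 CPM (0.92 ± 0.07 on the log2 scale, adjusted p = 1.24e-09). PEA15, which holds ERK and RSK in the cytoplasm, rose by 0.81 ± 0.04. MAPK3 (ERK1) fell by 0.59, from 31.4 and 30.4 to 20.9 and 20.3 CPM. The adaptor SHC1 fell by 0.54. Of 34 tested RSK substrates 10 rose and 17 fell (11 without BI-D1870 replicate 2). RRN3, the initiation factor of RNA polymerase I, fell from 149.8 and 143 to 83.9 and 79.2 CPM, PDCD4, an inhibitor of translation initiation, fell from 156 and 137 to 88.1 and 84.3, and TSC2, a brake on mTORC1, rose from 73 and 79.7 to 120.2 and 118.

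Immediate-early and feedback genes of ERK went both ways and by large amounts. Called rises made up 40.4% and called falls 36.2% of those tested, against 35.4% and 32.5% of genes that averaged 4 CPM or more. Of 47 tested, 19 rose and 17 fell (11 without BI-D1870 replicate 2 and 11 by DESeq2), and 9 rose and 9 fell at least 2-fold, against 3.37% and 8.08% of all genes. JUN, an AP-1 subunit, had 8.44 and 8.12 CPM in the DMSO libraries and 51.9 and 53.5 CPM in the BI-D1870 libraries, a rise of 2.67 ± 0.07 on the log2 scale or 6.37-fold (adjusted p = 6.39e-16). Both BI-D1870 libraries lay far above both DMSO libraries, and the DMSO values were nearly equal. EGR1, a zinc finger factor induced by ERK through serum response factor, rose from 17.1 and 17.4 to 37.6 and 35.5 CPM (1.08 ± 0.08).

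FOSB and FOS, the partners of JUN in AP-1, rose as well. FOSB went from 1.08 and 0.868 to 4.61 and 4.87 CPM, and FOS, which stayed low, from 0.183 and 0.229 to 1.52 and 0.961 CPM. ATF3, a stress factor of the same protein class, rose from 1.57 and 1.33 to 4.38 and 5.18 CPM and MCL1, a survival protein encoded by a short-lived transcript, from 175 and 182 to 303 and 302 CPM. JUNB and JUND did not pass, with log2 fold changes of 0.12 and -0.09, though JUNB passed without DMSO replicate 1 (0.25) or BI-D1870 replicate 1 (0.23) and JUND without DMSO replicate 2 (-0.18). In the other direction ETV4, an ETS factor that ERK signalling induces, fell from 49.5 and 41.5 to 7.9 and 8.21 CPM (-2.49 ± 0.09), while its relative ETV5 rose by 0.40 ± 0.05. LIF, a cytokine, fell from 7.01 and 7.65 to 0.842 and 0.93 CPM, CCND1, the cyclin D1 gene, from 6.5 and 6.54 to 1.24 and 0.993, and FOSL1, a further AP-1 subunit, from 26 and 25.6 to 14.1 and 13.9. The Sprouty and Spred genes SPRY2 and SPRED1 did not pass (0.07 and 0.11), SPRED1 passed without replicate 2 of the pair (0.14), and SPRY4 was not tested.

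The CArG box is the site that serum response factor binds, and RSK phosphorylates that factor. The 250 bases before the EGR1 start (RefSeq, GRCh38.p14, chr5:138465229-138465478, plus strand), 5′ to 3′, are shown for this reason, with both CArG boxes in capitals.
EGR1: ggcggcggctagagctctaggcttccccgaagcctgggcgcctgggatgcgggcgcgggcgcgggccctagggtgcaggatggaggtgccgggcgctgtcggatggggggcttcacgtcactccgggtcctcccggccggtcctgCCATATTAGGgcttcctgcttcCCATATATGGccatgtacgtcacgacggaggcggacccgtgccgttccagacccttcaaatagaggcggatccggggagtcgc
A CArG box on either strand stood in 1.29% of all 27305 RefSeq promoters of 300 bases (250 before to 50 after the start). A match is a description of the letters only.

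Among MAP kinase phosphatases, which switch off ERK, JNK and p38, 2 of 9 tested rose and 4 fell. DUSP6, which acts on ERK, rose from 22.1 and 22.6 to 30.9 and 28.3 CPM (0.41 ± 0.07, adjusted p = 4.81e-05). DUSP10, which acts on JNK and p38, rose from 12.9 and 13.7 to 22.2 and 19.9 CPM. DUSP1, DUSP4 and DUSP5 did not pass (0.18, 0.35 and 0.03), and DUSP4 passed without replicate 2 of the pair (0.38). DUSP2, a nuclear phosphatase of blood cells, fell from 5.5 and 6.18 to 1.93 and 1.95 CPM, DUSP16 from 11.9 and 11 to 5.69 and 5.22, and DUSP7 from 149.5 and 137 to 113 and 109.6.

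The largest falls among genes that averaged 4 CPM or more included secreted signals and surface proteins. IL1B, the inflammatory cytokine interleukin 1 beta (chr2:112829751-112836903, minus strand, GENCODE 29), had 98.3 and 87.8 CPM in the DMSO libraries and 2.27 and 2.32 CPM in the BI-D1870 libraries, 40.5-fold lower (-5.34 ± 0.09 on the log2 scale, adjusted p = 1.27e-18). ANGPT1, the ligand of the TEK receptor and a product of megakaryocytes, fell from 79 and 73.7 to 3.5 and 3.09 CPM (23.2-fold). IGFBP5, an insulin-like growth factor binding protein (chr2:216672105-216695525, minus strand), fell 11.3-fold, from 1422 and 1403 to 124 and 127 CPM. In all 3 genes both BI-D1870 libraries lay far below both DMSO libraries.

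IGFBP5 was among the abundant transcripts of the control cells, at 219 FPKM with DMSO and 19.4 FPKM with BI-D1870. ANGPT2, a further TEK ligand, fell from 11.6 and 8.73 to 0.562 and 0.882 CPM and HGF, hepatocyte growth factor, from 9.59 and 8.62 to 0.711 and 0.961 CPM. Of receptors and channels, IL9R, the interleukin 9 receptor, fell from 8 and 8.88 to 0.281 and 0.52 CPM, and KCNH2, a potassium channel, from 159 and 151 to 15.4 and 14.3. CD6, a lymphocyte surface protein, fell by 3.72 on the log2 scale, MS4A4A, a membrane protein of macrophages, by 3.46, and GPR85, an orphan receptor, by 3.24.

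The remaining genes among the 15 largest falls were TGM5, a transglutaminase, MYO3B, a myosin with a kinase domain, MIR223HG, the host transcript of a myeloid microRNA, KIAA1217 and C3orf20, with log2 fold changes of -4.31, -3.66, -3.43, -3.31 and -3.22. MYO3B was the most abundant of them, at 94.2 and 94.5 CPM with DMSO and 7.51 and 7.45 CPM with BI-D1870. In all 15 the 2 groups were fully apart, as the naming rule requires.

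Among genes that averaged 4 CPM or more, the 15 largest rises were smaller than the 15 largest falls and lay in genes with at most 16.4 CPM in the control cells. SLFN5, a member of the interferon-regulated Schlafen family, led with 1.53 and 1.06 CPM with DMSO and 8.86 and 8.6 CPM with BI-D1870 (2.76 ± 0.16, 6.75-fold, adjusted p = 2.57e-11). JUN followed, and 4 histone genes were in the list, H4C9, H2BC12, H2AC6 and H2BC5. HELZ2, a helicase that coactivates nuclear receptors, rose from 3.91 and 3.95 to 18.7 and 18.2 CPM, and TLN2, a talin that links integrins to actin, from 3.93 and 4.39 to 19.1 and 19.3. FAM13B rose from 11.1 and 12.8 to 51.3 and 50 CPM. TP53I3, a p53-induced oxidoreductase, and SERTAD1, a regulator of E2F and CDK4, rose by 2.17 ± 0.13 and 1.97 ± 0.10. PLCD3, a phospholipase C, DMPK, a kinase of muscle, VASN, a TGF-beta binding surface protein, and the unnamed locus AC240274.1 rose by 2.25, 1.94, 1.91 and 2.36.

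**Figure D2:**
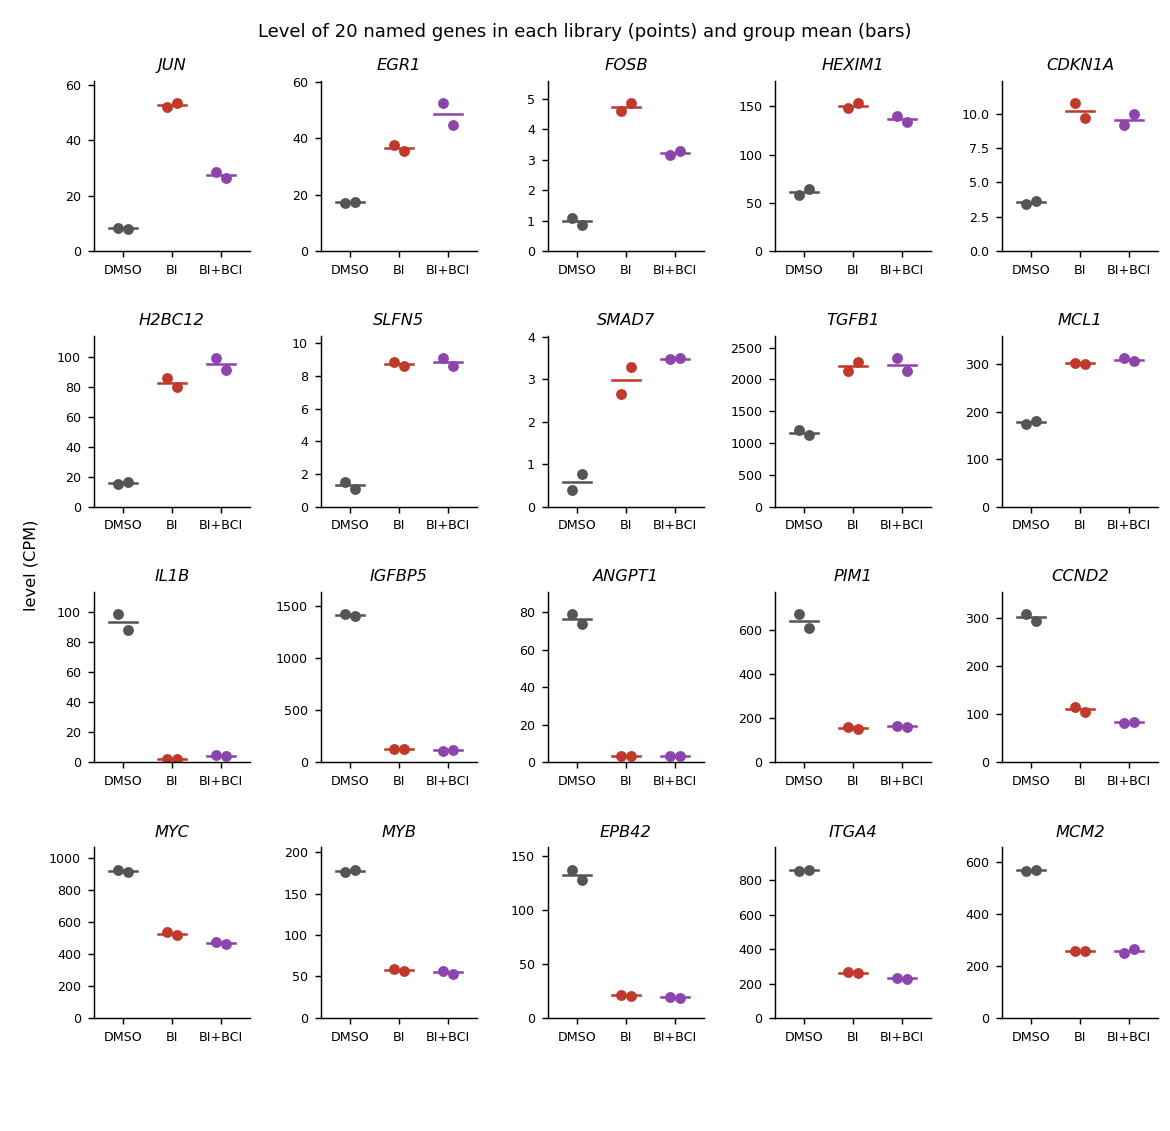
Level in CPM (y axis, from 0, a scale for each panel) of 20 named genes in each library by group: DMSO (grey), BI-D1870 (red) and BI-D1870 with BCI (purple), all at 24 h, 2 libraries per group. Points are libraries and bars are means. In each panel both BI-D1870 libraries lie on the same side of both DMSO libraries, above them for the first 10 genes and below them for the last 10.

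HEL cells depend on JAK2, and the genes of this route moved in both directions. Of 25 tested JAK, STAT and cytokine receptor genes 12 rose (48%) and 9 fell (36%). Among genes that averaged 4 CPM or more, 35.4% rose and 32.5% fell. JAK2 rose slightly, from 323 and 301 to 366 and 359.6 CPM (0.22 ± 0.04), and JAK1 from 425 and 407 to 568 and 551. STAT5A, the transcription factor JAK2 activates, fell from 521 and 518 to 272 and 262 CPM (-0.96 ± 0.04, adjusted p = 1.28e-13), and STAT3 did not pass (0.08), but did without replicate 2 of BI-D1870 (0.15) or of the pair (0.12). SH2B3, an adaptor that restrains JAK2, rose from 186 and 179 to 328 and 324 CPM. Of the receptors, the erythropoietin receptor EPOR rose from 39 and 43 to 72.6 and 73.2 CPM and IL6ST, the shared gp130 chain, from 38.7 and 41.3 to 84 and 83.8. CSF2RB, the shared beta chain for interleukin 3 and GM-CSF, fell from 139 and 131 to 47.5 and 45.9 CPM, and KIT, the stem cell factor receptor, from 65.6 and 62.6 to 33.8 and 31.6.

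Of 18 tested STAT5 target genes 5 rose and 10 fell, with a median of -0.22. Among those that rose, ID2 went from 25.2 and 24.9 to 34.7 and 36.3 CPM. BCL6 rose by 3.89 on the log2 scale, with at most 18 counts in a library. PIM1, a serine and threonine kinase that STAT5 induces, had 671 and 608 CPM with DMSO and 159 and 152 CPM with BI-D1870, 4.11-fold lower (-2.04 ± 0.05, adjusted p = 4.07e-17). CCND2, the cyclin D2 gene, fell from 308 and 294 to 114 and 105 CPM. SOCS3, a feedback inhibitor of cytokine receptors, fell from 62.1 and 51.9 to 34.6 and 36.1 CPM, and the related CISH and SOCS2 fell by 0.26 and 0.31 on the log2 scale. The CISH call was lost without BI-D1870 replicate 2 (-0.17). BCL2L1, the survival gene, did not pass (0.07), but did without replicate 2 of the pair (0.11). PIM2 fell by 0.28 and PIM3 rose by 0.28, so that the PIM genes did not move together. OSM and LTB, cytokine genes of the list, fell by 1.33 and 1.64.

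Most genes of the red cell lineage were lower. Of 46 tested erythroid genes 32 fell and 4 rose (2 without DMSO replicate 1), with a median of -0.43, and 12 fell at least 2-fold. EPB42, a red cell membrane protein, had 137 and 128 CPM with DMSO and 21.2 and 20.4 CPM with BI-D1870 (-2.67 ± 0.06, adjusted p = 1.81e-17). HEMGN, a nuclear regulator of erythroid cells, fell from 143 and 130.4 to 28.8 and 28.9 CPM, and CA1, a carbonic anhydrase, from 724 and 663 to 265 and 262. The globins fell to different degrees, in order HBB (-2.62), HBZ (-1.83), HBE1 (-1.32), HBG2 (-0.49), HBG1 (-0.36) and HBA2 (-0.24), while HBA1 did not pass (-0.01). HBE1, the embryonic epsilon globin, went from 508 and 519 to 201 and 211 CPM and the fetal HBG2 from 2477 and 2658 to 1808 and 1836 CPM. HBG1 and HBG2, and likewise HBA1 and HBA2, are near-identical copies, and how reads were split between them is not given in the sources used here. The HBG1 call was lost without BI-D1870 replicate 1 (-0.18) and by DESeq2.

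Most platelet lineage genes were lower. Of 44 tested megakaryocyte and platelet genes 37 fell and 5 rose, with a median of -0.68. GP5 and GP9, subunits of the von Willebrand factor receptor, fell from 19.4 and 20.8 to 2.7 and 3.37 CPM and from 125 and 115 to 33.5 and 32.6 CPM. SELP, the platelet P-selectin, fell from 107 and 99.8 to 17.1 and 15.4 CPM and PLEK, pleckstrin, a substrate of protein kinase C, from 754 and 755 to 261 and 259. ITGA2B, the alpha chain of the fibrinogen receptor, fell by only 0.20 on the log2 scale, from 1339.8 and 1356 to 1172 and 1178 CPM, and its beta chain ITGB3 rose from 73.7 and 77.2 to 126 and 122 CPM (0.71 ± 0.05). TGFB1, a growth factor stored in platelets, rose from 1197 and 1126 to 2138 and 2279.8 CPM (0.93 ± 0.04). In bulk RNA, fewer cells of a type and less RNA per cell cannot be told apart.

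Of 29 transcription factors of the erythroid and megakaryocyte lineages 16 fell and 9 rose, with a median of -0.20. MYB, a driver of progenitor growth, fell from 176 and 179 to 59.1 and 56.4 CPM (-1.62 ± 0.05, adjusted p = 1.75e-15), and IKZF1, the Ikaros factor, from 156 and 145 to 48.2 and 48.7. BCL11A, a repressor of fetal globin, fell from 38.3 and 35 to 15.7 and 15.6 CPM, LMO2, a bridge protein of the GATA1 complex, from 104 and 103 to 45 and 44.6, and FLI1, an ETS factor of megakaryocytes, from 598 and 529 to 376 and 368. GATA1 and KLF1, the main erythroid factors, fell by only 0.16 and 0.29 on the log2 scale. GATA2, RUNX1 and TAL1 rose by 0.31, 0.29 and 0.25. HEXIM1, an inhibitor of the elongation kinase P-TEFb, was the largest rise of the list, from 58.1 and 64.2 to 148 and 154 CPM (1.30 ± 0.05, adjusted p = 9.7e-14).

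Most tested genes of stem cells and of the myeloid and lymphoid lineages were lower too. Of 23 tested stem and progenitor genes 16 fell and 2 rose (1 without DMSO replicate 1 or without BI-D1870 replicate 1). ITGA4, an integrin of progenitors, fell from 855 and 862 to 265 and 261 CPM (-1.71 ± 0.04). Of 33 tested monocyte and granulocyte genes 20 fell and 3 rose, and with the stricter filter 13 fell. SPI1, the PU.1 factor, fell from 120.0 and 113 to 42.6 and 41.2 CPM, VCAN, a matrix proteoglycan of monocytes, from 27.9 and 32.6 to 4.7 and 4.71, and MS4A2, the mast cell Fc receptor chain, from 20.9 and 25.1 to 4.81 and 3.85. Of 16 tested lymphoid markers 10 fell, and 6 with the stricter filter. None rose by edgeR at an adjusted p under 0.05, 0 had an unadjusted p under 0.05 in that direction, and 0 rose by DESeq2 and by limma-voom. CD4 went from 34.2 and 36.1 to 16 and 17.9 CPM and CD2 from 14.7 and 15.8 to 2.7 and 2.98. Of 12 tested epithelial and stromal markers 6 fell and 1 rose (2 without DMSO replicate 2, without BI-D1870 replicate 1 or without either library of the pair).

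Summed levels of these markers moved with the treatment. The 48 erythroid genes summed to 10970 and 11120 CPM with DMSO and to 8050 and 8218 CPM with BI-D1870, and the 52 platelet lineage genes to 8674 and 8596 against 7870 and 7910 CPM, with GP1BB, a subunit gene of the von Willebrand factor receptor, at 0 in all 4 libraries. The 52 monocyte and granulocyte genes summed to 1048 and 1013 against 755.9 and 768.1 CPM, with ELANE, S100A12 and FCN1 at 0 in all 4 libraries. The 30 lymphoid genes summed to 91.54 and 95.28 against 37.84 and 42.69 CPM, with CD3D, MS4A1, TRBC1 and EBF1 at 0. The 24 epithelial and stromal genes summed to 102.2 and 99.29 against 77.1 and 73.26 CPM, with KRT5, KRT14 and FAP at 0. Whether cells of such types had a part in the results was not tested.

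**Figure D3:**
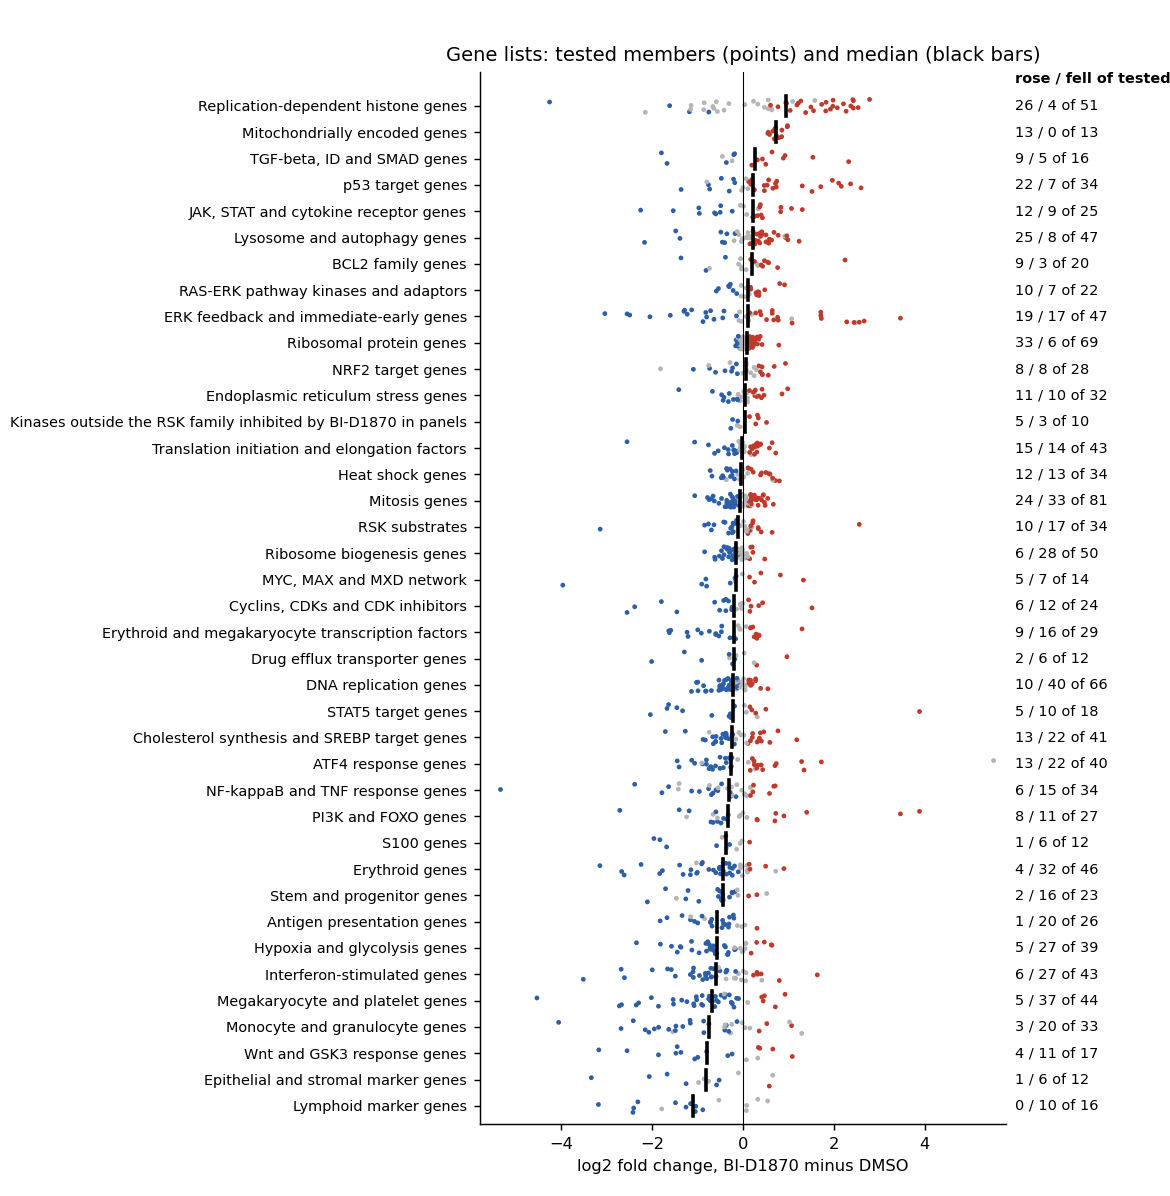
Log2 fold change of BI-D1870 minus DMSO (x axis) for the tested members of each gene list with at least 10 tested members (y axis, ordered by median). Red points rose, blue points fell, grey points did not pass, black bars are medians, and the numbers at the right count the members that rose and fell. Histone and mitochondrially encoded genes have the highest medians, 0.95 and 0.72, and lymphoid markers the lowest, -1.10.

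More DNA replication genes fell than rose. Of 66 DNA replication genes 40 fell and 10 rose (6 without DMSO replicate 2 or without BI-D1870 replicate 1), with a median of -0.22. MCM2, a subunit of the replicative helicase, fell from 568 and 572 to 259.7 and 259.5 CPM (-1.13 ± 0.04, adjusted p = 1.92e-14). MCM5, MCM3, MCM4 and MCM6, further helicase subunits, fell by 0.99, 0.82, 0.81 and 0.70 on the log2 scale, and UHRF1, which maintains DNA methylation, fell from 112 and 113 to 56.7 and 54.1 CPM. Of 81 mitosis genes 33 fell (40.7%) and 24 rose (29.6%), with a median of -0.06. Among genes that averaged 4 CPM or more, 32.5% fell and 35.4% rose. MKI67, the proliferation antigen, fell from 838 and 804 to 488 and 468 CPM, TOP2A by 0.22 on the log2 scale, and TPX2, a spindle factor, did not pass (-0.09), but did without DMSO replicate 2 (-0.13). PLK1, a mitotic kinase that BI-D1870 also inhibits in kinase panels, fell from 202 and 188 to 162 and 161 CPM.

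Of 24 tested cyclins, CDKs and CDK inhibitors 12 fell and 6 rose. CDK6 fell from 361 and 359 to 256 and 248 CPM, the repressor E2F8 from 21.3 and 19.3 to 5.62 and 6.04, and CCND3 rose by 0.15. CDKN1A, the CDK inhibitor p21, rose from 3.43 and 3.67 to 10.8 and 9.64 CPM (1.52 ± 0.12, adjusted p = 3.01e-09), and CDKN1B, p27, fell by 0.24, a call lost without BI-D1870 replicate 2 (-0.18). Of 34 tested p53 target genes 22 rose and 7 fell (4 without BI-D1870 replicate 2), with a median of 0.23. BTG2, an antiproliferative gene, rose from 66.1 and 64 to 214 and 213 CPM, GADD45A, a DNA damage and stress gene, from 102 and 93.7 to 154 and 155, and its relative GADD45B from 1.04 and 0.721 to 5.65 and 5.01. FAS, a death receptor, fell from 4.09 and 4.67 to 1.72 and 1.69 CPM. In the BCL2 family 9 of 20 rose and 3 fell. BCL2L11, the death inducer BIM, rose from 87.5 and 84.9 to 129 and 126 CPM, BCL2 fell from 19.4 and 18.8 to 11 and 10.8, and BNIP3 fell from 95.1 and 80.6 to 34.5 and 33.6.

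MYC and most called ribosome biogenesis genes were lower. MYC, a driver of ribosome production and growth, fell from 928 and 912 to 538 and 519 CPM (-0.80 ± 0.04, adjusted p = 1.2e-12). MYCN fell from 5.85 and 5.45 to 0.337 and 0.378 CPM, and MXD4, an antagonist of MYC, rose from 5.15 and 6.09 to 13.8 and 14.6. Of the 14 tested genes of the MYC, MAX and MXD network 5 rose and 7 fell. Of 50 ribosome biogenesis genes 28 fell and 6 rose (3 without DMSO replicate 1), with a median of -0.15. FBL, fibrillarin, fell from 185 and 185 to 123 and 118 CPM and NCL, nucleolin, from 1864 and 1826 to 1583 and 1548, while NPM1 did not pass (-0.03) and NOP56 rose by 0.48.

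Ribosomal protein genes went the other way by small steps. Of 69, 33 rose and 6 fell, with a median of 0.09, and all 69 log2 fold changes lay between -0.16 and 0.79. The falls were few and small, and 1 gene fell without DMSO replicate 1, 2 without replicate 2 of the pair and 0 without BI-D1870 replicate 2. RPL28 rose from 1324 and 1198 to 1641 and 1734 CPM and RPS6, whose protein RSK phosphorylates, by 0.11, a call lost without DMSO replicate 2 (0.06) or BI-D1870 replicate 1 (0.07). Among translation factors 15 of 43 rose (34.9%) and 14 fell (32.6%), near the 35.4% and 32.5% of genes that averaged 4 CPM or more. EIF4EBP1, a repressor of cap-dependent initiation, fell from 252 and 239 to 155 and 163 CPM, its relative EIF4EBP2 rose from 169.8 and 169 to 279.9 and 279, and EIF4B, an initiation factor that RSK phosphorylates, fell from 803 and 764 to 637 and 621.

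More replication-dependent histone genes rose than fell, where more replication genes fell than rose. These genes, clustered on chromosomes 6 and 1, are normally transcribed in S phase, and most of their transcripts end in a stem loop in place of a poly(A) tail. Of 51 tested, 26 rose and 4 fell (2 without BI-D1870 replicate 2), 22 rose at least 2-fold, and the median was 0.95. The 58 genes found in the table summed to 78.3 and 85.1 CPM with DMSO and to 251 and 241 CPM with BI-D1870. By family, 10 of 16 H2B genes rose, 5 of 12 H2A, 5 of 8 H3, 5 of 11 H4 and 1 of 4 H1 genes. Many were low, and with the stricter filter 16 were tested, of which 12 rose and 1 fell.

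H2BC12 had 15.3 and 16.4 CPM in the DMSO libraries and 85.6 and 79.6 CPM in the BI-D1870 libraries (2.38 ± 0.06, 5.19-fold, adjusted p = 3.29e-16). H2AC6 went from 3.62 and 3.6 to 18.1 and 16.8 CPM and H4C9 from 2.69 and 3.05 to 16.3 and 14.8 CPM. In each of the 3 genes both BI-D1870 libraries were several times above both DMSO libraries. The linker histone gene H1-2 rose from 15.3 and 15.4 to 40.7 and 39.3 CPM. A larger share rose among genes with a long annotation, a split made after the values were seen and not tested. Of 20 tested histone genes with a GENCODE span over 1 kb 17 rose and 3 did not pass, and of 31 with a span of at most 1 kb 9 rose, 4 fell and 18 did not pass. A long span marks genes with annotated transcripts that run past the stem loop or are spliced. The kit used to make the libraries, and with it how RNA without a poly(A) tail was counted, is not given in the sources used here.

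**Figure D4:**
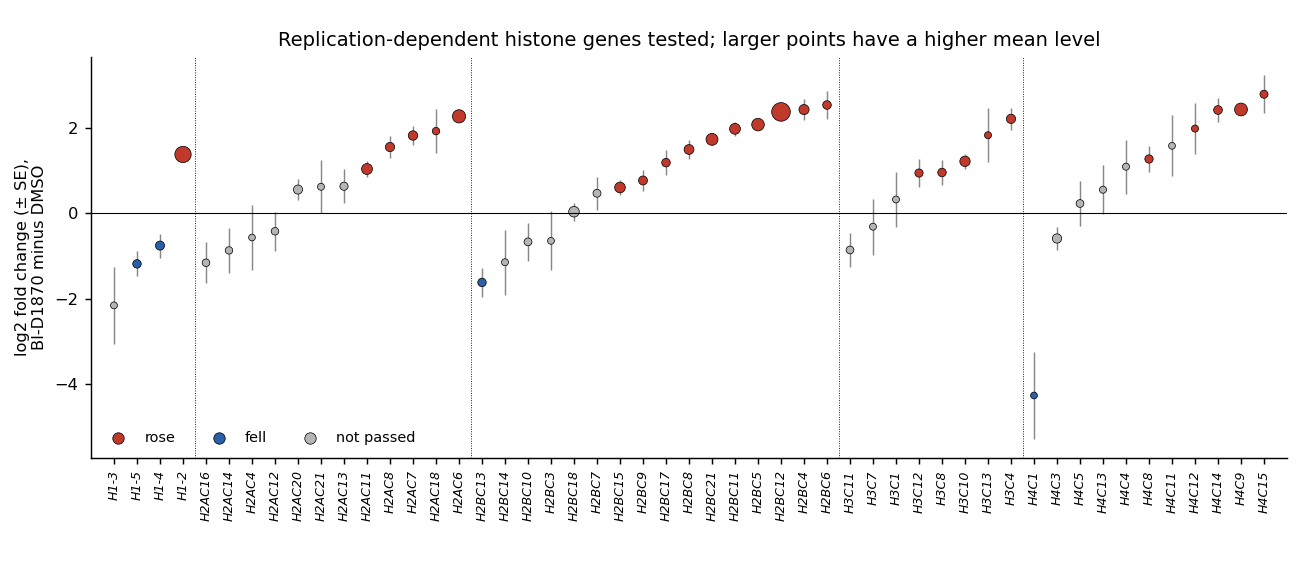
Log2 fold change of BI-D1870 minus DMSO with its standard error (y axis) for the 51 replication-dependent histone genes tested, ordered within the families H1, H2A, H2B, H3 and H4, which dotted lines part (x axis). Red points rose, blue points fell, grey points did not pass, and the area of a point grows with the mean level. H2BC12 is the most abundant of those that rose, and the H2B family holds 10 red points.

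The promoter letters of these genes are shown because members that rose and members that did not pass both hold the same motifs. The octamer was added to the search after the values were seen. The sequences are from RefSeq on GRCh38.p14, upstream bases only, 5′ to 3′, with the octamer (ATTTGCAT, the site of OCT1), the CCAAT box (CCAAT) and the cyclic AMP response element (TGACGTCA) in capitals where found on either strand. H2BC12 (chr6:27146859-27147108, minus strand) and the divergent pair H2BC4 and H2AC6, which lie head to head with the interval chr6:26123927-26124144 between them (given on the H2AC6 strand), rose. H2BC18 (chr1:149812371-149812620, minus strand) did not pass.
H2BC12: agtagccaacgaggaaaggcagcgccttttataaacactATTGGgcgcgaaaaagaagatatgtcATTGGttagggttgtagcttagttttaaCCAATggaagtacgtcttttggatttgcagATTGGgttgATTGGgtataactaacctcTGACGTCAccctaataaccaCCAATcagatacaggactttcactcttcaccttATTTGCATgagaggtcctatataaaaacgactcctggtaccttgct
H2BC4-H2AC6: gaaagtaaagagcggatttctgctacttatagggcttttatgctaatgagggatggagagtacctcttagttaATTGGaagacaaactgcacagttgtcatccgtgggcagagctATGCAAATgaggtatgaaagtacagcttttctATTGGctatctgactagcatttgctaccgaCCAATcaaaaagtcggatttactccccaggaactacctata
H2BC18: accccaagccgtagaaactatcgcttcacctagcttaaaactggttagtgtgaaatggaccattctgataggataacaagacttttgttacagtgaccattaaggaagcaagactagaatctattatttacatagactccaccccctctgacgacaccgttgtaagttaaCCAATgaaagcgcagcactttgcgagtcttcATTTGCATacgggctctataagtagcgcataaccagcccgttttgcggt
All 3 stretches hold 1 octamer, H2BC12 holds 6 CCAAT boxes and 1 cyclic AMP response element, the H2BC4 and H2AC6 interval 3 CCAAT boxes, and H2BC18 1. H2BC4 rose from 1.11 and 0.622 to 5.24 and 4.08 CPM, and H2BC18 stood at 2.76 and 4.21 CPM with DMSO and 3.91 and 3.29 CPM with BI-D1870. An octamer was in 13 of 25 risen and 10 of 18 not-passed histone genes with a promoter in the table, and in 8 of 10 risen and 5 of 5 not-passed H2B genes, against 1.8% of all promoters. A CCAAT box was in 21 of the 25 risen and 15 of the 18 not-passed genes, against 35.7% of all promoters, and the cyclic AMP response element in 2 of the 25 and 4 of the 18, against 1.98%. Of the 3 fallen genes with a promoter 0 held an octamer and 3 a CCAAT box.

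All 13 mitochondrially encoded protein genes rose, by 0.55 to 0.98 on the log2 scale, with a median of 0.72. They encode subunits of the respiratory chain and of ATP synthase. MT-CYB, of complex III, had 1545 and 1619.7 CPM with DMSO and 3093 and 3157 CPM with BI-D1870 (0.98 ± 0.04, adjusted p = 5.24e-13). MT-CO1, of complex IV, went from 5778 and 6009 to 9247 and 9369.9 CPM and MT-ND4, of complex I, from 4634 and 4517 to 7688 and 7551 CPM. The share of all counts from mitochondrially encoded genes was 3.58 and 3.64% in the DMSO libraries and 6.17 and 6.2% in the BI-D1870 libraries. Without these genes in the fit, an alternative chosen after seeing the data, 10045 genes were called, 5229 risen and 4816 fallen.

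More immune and inflammatory genes fell than rose in each list. Of 43 tested interferon-stimulated genes 27 fell and 6 rose, with a median of -0.59. IFITM2 and IFITM1, which block virus entry, fell from 198 and 174 to 89.2 and 85.6 CPM and from 18.2 and 17.3 to 3.31 and 2.52 CPM. GBP1, a guanylate binding protein, fell from 10.8 and 9.5 to 1.61 and 1.54 CPM. The factor IRF7 rose from 14.4 and 15.2 to 46.4 and 45.9 CPM (1.64 ± 0.07), and STAT2 rose by 0.40.

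Of 26 tested antigen presentation genes 20 fell and 1 rose. NLRC5, the activator of MHC class I genes, fell from 157 and 174 to 81 and 77.5 CPM, PSMB8, a subunit of the immunoproteasome, from 77.3 and 74.8 to 39.6 and 36.7, and CIITA, the activator of class II genes, from 6.78 and 8.83 to 2.12 and 2.29. Of the class I genes HLA-C fell by 0.32, and B2M, the shared light chain, did not pass (0.04). HLA genes are close copies of each other, and their counts are uncertain to that extent. Of 34 tested NF-kappaB and TNF response genes 15 fell and 6 rose. After IL1B, TNFAIP3, a feedback inhibitor of NF-kappaB, fell from 26.8 and 23.7 to 7.9 and 6.78 CPM and NFKBIA, a further inhibitor, from 20.7 and 18.7 to 11.9 and 12.4, while SOD2, a mitochondrial superoxide dismutase, rose from 67 and 65.7 to 112 and 105. Of 12 tested S100 genes 6 fell (3 with the stricter filter) and 1 rose, a call that was lost without DMSO replicate 2 and without either BI-D1870 library. S100A4 fell from 75.1 and 76.4 to 50.1 and 51.1 CPM. S100A8 and S100A9, the alarmins, were not tested, with at most 2 counts in these libraries.

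Of 39 tested hypoxia and glycolysis genes 27 fell, 5 rose and 7 did not pass, with a median of -0.58. VEGFA, the vascular growth factor, fell from 36.9 and 33.2 to 13.4 and 13.4 CPM, PFKFB4, a switch of glycolysis, from 73.9 and 62.5 to 13.9 and 13, and ENO1, an abundant glycolytic enzyme, from 3229 and 3199.9 to 2092 and 2026. GAPDH did not pass (-0.00).

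Of 41 tested cholesterol synthesis and SREBP target genes 22 fell and 13 rose. HMGCS1, an early enzyme of sterol synthesis, fell from 93.4 and 89.4 to 60.5 and 55.9 CPM, the cholesterol exporter ABCG1 from 73.3 and 72.3 to 33 and 27.5, and TM7SF2, a late sterol enzyme, rose from 16.5 and 16.4 to 37 and 37.8. Of 40 tested ATF4 response genes 22 fell and 13 rose. DDIT3, the CHOP factor, rose from 4.37 and 3.9 to 9.47 and 11.5 CPM, ATF5 from 19.4 and 20 to 47.4 and 49.1, and the amino acid transporter SLC7A5 from 269.9 and 274 to 448 and 439.9. CBS, an enzyme of cysteine synthesis, fell from 3.11 and 3.59 to 1.1 and 1.34 CPM, and EPRS1, a tRNA synthetase, from 467 and 459 to 365 and 344. In the endoplasmic reticulum stress list 11 of 32 rose and 10 fell (6 without BI-D1870 replicate 2). The main shares of this list, 34.4% risen and 31.2% fallen, were near the 35.4% and 32.5% of genes that averaged 4 CPM or more. PPP1R15A, which restarts translation after stress, rose from 93.5 and 89.7 to 172 and 189.9 CPM, and XBP1 fell from 90.1 and 79.4 to 57.6 and 64.6.

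Chaperone and antioxidant lists were split. Of 34 heat shock genes 12 rose (35.3%) and 13 fell (38.2%), against 35.4% and 32.5% of genes that averaged 4 CPM or more. HSPA8, the constitutive HSP70, rose from 2455 and 2518 to 3875 and 3949.5 CPM (0.65 ± 0.03), FKBP4, an HSP90 partner, fell from 297 and 298 to 180.1 and 181, and HSP90AA1 did not pass (0.02). Of 28 tested NRF2 targets 8 rose and 8 fell (28.6% each). The autophagy receptor SQSTM1 rose from 68.6 and 65 to 124 and 131 CPM, the ferritin light chain FTL from 1425 and 1399 to 1894 and 1886, and GSTP1, a glutathione transferase, fell from 25.6 and 22.3 to 13 and 13. Of 8 tested genes of the metallothionein list, which also holds zinc transporters and the zinc sensor, 3 rose and 2 fell (1 without DMSO replicate 1 or without any 1 of the 4 libraries with BI-D1870). MT2A rose from 73 and 65.6 to 104 and 105 CPM.

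More lysosome and autophagy genes rose than fell. Of 47 tested, 25 rose and 8 fell, with a median of 0.22. MAP1LC3B, which coats autophagosomes, rose from 50.8 and 48.5 to 97.7 and 96.4 CPM (0.97 ± 0.05), ULK1, the kinase that starts autophagy, from 62.6 and 64.7 to 112 and 107, and the protease gene CTSB from 192 and 190.3 to 288 and 279. CTSS, a cathepsin of antigen presenting cells, fell from 59.2 and 59.2 to 14.5 and 11.9 CPM.

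Other signalling lists held some of the sharper single changes. Of 17 tested Wnt and GSK3 response genes 11 fell and 4 rose, with a median of -0.80. LEF1, a nuclear partner of beta-catenin, fell from 57.3 and 53.4 to 25.7 and 27.2 CPM, RNF43, a feedback ligase, from 9.79 and 9.37 to 2.25 and 2.99, and CTNNB1, beta-catenin itself, rose from 232 and 244 to 376 and 376. Of 16 tested TGF-beta, ID and SMAD genes 9 rose and 5 fell (3 without BI-D1870 replicate 2). SKIL and SKI, repressors of SMAD signalling, rose from 27.8 and 30.5 to 83.3 and 86.4 CPM and from 234 and 231 to 431 and 429.9 CPM. SMAD7, the inhibitory SMAD, rose from 0.402 and 0.77 to 2.66 and 3.29 CPM (2.33 ± 0.26), and ID3, an inhibitor of E proteins, fell from 14.2 and 16.3 to 4.94 and 4.63.

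Of 27 PI3K and FOXO genes 8 rose (29.6%) and 11 fell (40.7%), against 35.4% and 32.5% of genes that averaged 4 CPM or more. SESN3, a FOXO target, rose from 32.4 and 31.5 to 82.8 and 86.3 CPM and TRIB2, a pseudokinase, fell from 105 and 107 to 47 and 46.5. Of 12 drug efflux transporters 6 fell and 2 rose. ABCC4 fell from 785 and 772 to 423 and 405 CPM, and ABCB1, the multidrug transporter, rose from 105 and 103 to 132 and 124 CPM (0.30 ± 0.04). Of the transcripts of 10 kinases outside the RSK family that BI-D1870 inhibits in panels 5 rose (50%) and 3 fell (30%). The background shares were again 35.4% and 32.5%. Log2 fold changes of these kinases ran from -0.27 to 0.52, STK3 being the highest.

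Adding BCI to BI-D1870 changed far fewer genes than BI-D1870 itself. Against BI-D1870 alone, 474 genes were higher (2.22%) and 530 lower (2.48%). This contrast shares the BI-D1870 libraries with the one above, and it rests on few libraries. Without BI-D1870 replicate 1 or 2 it called 367 and 325 genes, and without replicate 1 or 2 of the pair 565 and 393. PIM1 had 164 and 162 CPM with both compounds and 159 and 152 CPM with BI-D1870 alone, a difference of 0.07 ± 0.05 on the log2 scale that did not pass. Of the 15 largest rises 3 passed for a difference with BCI added, JUN (-0.95), H2AC6 (-0.72) and H2BC12 (0.21), and of the 15 largest falls 2 did, IL1B (0.93) and KCNH2 (0.22).

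JUN, at 51.9 and 53.5 CPM with BI-D1870 alone, had 28.5 and 26.3 CPM with BCI added, between the other 2 groups. EGR1 had 52.5 and 44.5 CPM with BCI added, above BI-D1870 alone (0.41 ± 0.07, adjusted p = 0.00155). All 13 mitochondrially encoded genes were lower with BCI added, as were 17 of 34 heat shock genes and 21 of 46 erythroid genes, against 2.48% of all genes. HSPA8 had 1792 and 1755 CPM with both compounds, below the values of both other groups (-1.14 ± 0.03 against BI-D1870, adjusted p = 7.01e-14). MT-ND4 had 6069.6 and 5415 CPM, with a mitochondrial share of all counts of 5.72 and 5.28%, and HBG2 1039.6 and 1281 CPM. The largest difference among the genes ranked by the naming rule was in NQO1, an NRF2 target, which did not pass for BI-D1870 against DMSO (0.25, but 0.42 and passing without BI-D1870 replicate 2) and went from 4.85 and 3.97 CPM with BI-D1870 to 11.7 and 11.9 CPM with BCI added. FTL had 4219 and 3965 CPM and GSTP1 28.9 and 29.4 CPM with both compounds, each above BI-D1870 alone.

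**Figure D5:**
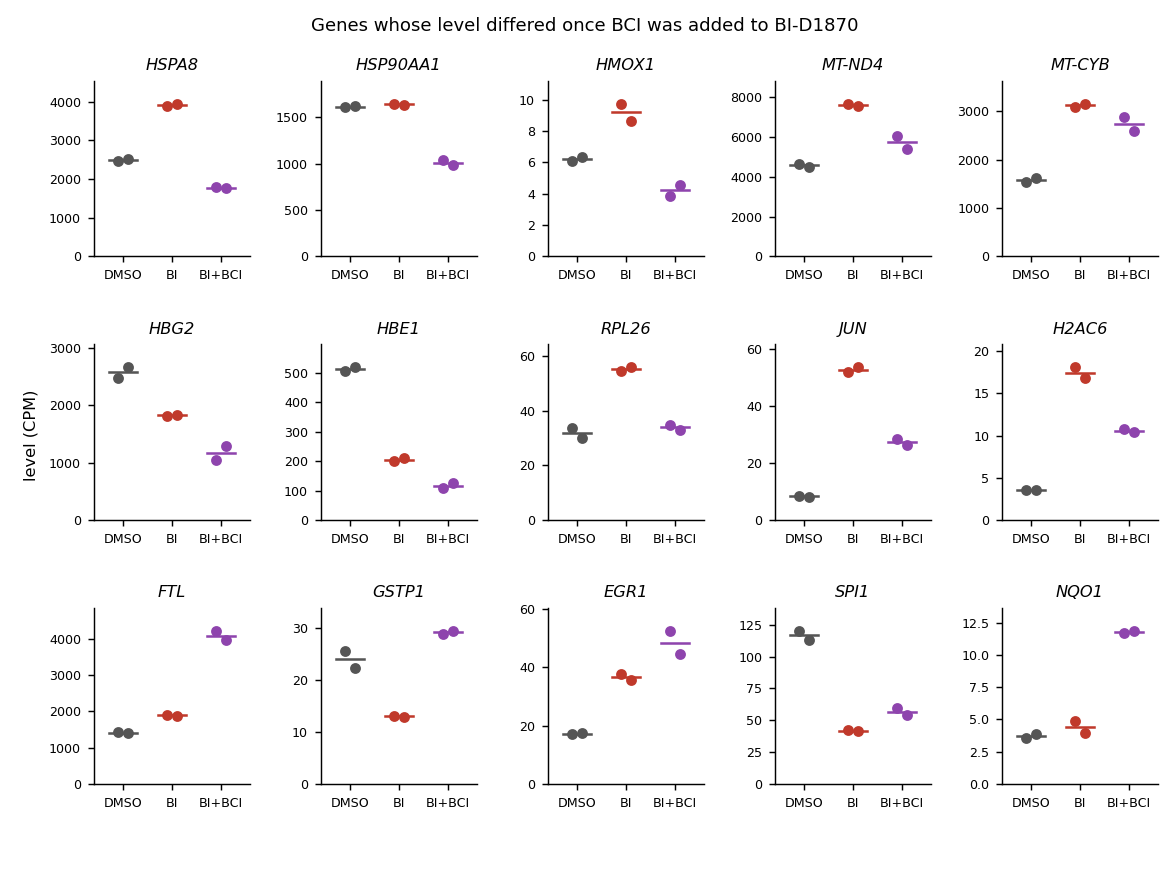
Level in CPM (y axis, from 0, a scale for each panel) of 15 genes that differed between BI-D1870 with BCI (purple) and BI-D1870 alone (red), with the DMSO libraries (grey), at 24 h. Points are libraries and bars are means, 2 libraries per group. HSPA8 and HMOX1 are highest with BI-D1870 alone and lowest with both compounds, and FTL and NQO1 are highest with both.

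The changed genes are described here by level, span and type. Protein-coding genes that rose at least 2-fold had a median of 1.04 CPM with DMSO, those that fell at least 2-fold 4.02 CPM, and all 13937 tested protein-coding genes 23.4 CPM. The level with DMSO is part of the fold change that sorts these genes. A risen gene could also pass the low-count filter on its treated libraries alone, so the low level of risen genes is no separate result. The median gene span was 20741 bases in genes that rose at least 2-fold, 33267 bases in those that fell at least 2-fold and 31355 bases over all. Of the 13937 tested protein-coding genes 4226 rose and 4308 fell, where 22.8% and 24.3% of all genes tested did. Of 3354 tested lncRNA genes 320 rose and 587 fell. Of 2775 processed pseudogenes, which can share reads with their parent genes, 162 rose and 152 fell. Promoters could be matched for 81.1% of tested protein-coding genes but for only 78.1% of those that rose and 73.7% of those that fell at least 2-fold, so the check of motifs and GC content in those 2 groups is void. Among genes that changed by less than 2-fold, where 83.1% of the risen and 83.0% of the fallen had a promoter, the cyclic AMP response element was in 3.88% of the risen, 2.73% of the fallen and 3.11% of all tested, the E-box (CACGTG) in 9.43%, 11.9% and 9.81%, and the E2F site (TTTCCCGC) in 2.64%, 2.81% and 2.53%. In the same order, the CArG box was in 0.858%, 1.31% and 1.1%, and the octamer in 1.14%, 1.5% and 1.58%. The CCAAT box was in 37.4%, 36.1% and 36.6%, and the STAT site (TTCNNNGAA) in 5.4%, 6.58% and 6.5%. The AP-1 site (TGACTCA) was in 2.54%, 2.73% and 3.08%, and the CHR element (TTTGAA) in 8.32%, 10.8% and 10.2%. The median GC content of the same promoters was 66.7% in the risen, 65% in the fallen and 64.7% over all.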

How the data were processed

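RNA of HEL cells was sequenced on an Illumina NovaSeq, per the labels' protocols. The authors deposited raw counts per gene, whole numbers that were not normalized. The submitters' processing notes name bcl2fastq, STAR 2.5.1a, GRCh38 and edgeR, with no role for each and no order. How reads were counted, on which strand and from which kit is not given in the sources used here. Of 55209 lines, 116 repeat a gene identifier and were dropped, so that 55093 genes entered. Gene names, spans and exonic lengths came from GENCODE 29 and promoters from RefSeq on GRCh38.p14.

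All 6 libraries of the table, in 3 groups of 2, were fitted together with edgeR 4.0.16 (R 4.3.3), using filterByExpr, TMM and the quasi-likelihood test, with a Benjamini-Hochberg adjusted p under 0.05 over 21328 genes and 3 residual degrees of freedom. Levels are CPM on TMM library sizes, and FPKM divides by exonic length. The fit was tried on simulated counts for BI-D1870 against DMSO, with 20810 genes tested and changes set in genes over 1 CPM. It called 95% of 80 genes changed 1.5-fold and 100% of 58 and 62 genes changed 2-fold and 4-fold, with 11 false calls. Every simulated gene had the same spread, and few genes were changed, where 47.1% were called in the data. These rates therefore do not measure the error among the real calls. Deviations of same-numbered libraries correlated at -0.0782 for DMSO with BI-D1870, 0.157 for DMSO with the pair and -0.0089 for BI-D1870 with the pair. Whether same-numbered libraries shared a culture or a day was not tested. Between 65.8 and 68.3% of values of 1 to 20 counts were even, and halved counts were 1 alternative.

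The genes, their 43 lists and the rules were chosen with earlier results of these data known. Genes were named if they were among 44 key genes. Also named were the 15 largest rises and 15 largest falls with a mean of at least 4 CPM and groups that did not overlap. The 15 largest differences made by BCI under the same conditions were added. So were, in each list, up to 8 most changed called members and the 4 most abundant members, called or not. Some genes that this rule names are not reported here. Alternatives were DESeq2 size factors, other filters, DESeq2 1.42.0, limma-voom (limma 3.58.1), a fit of only the libraries compared, each library in turn left out, a block for the replicate number, and a fold change of at least 1.5.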

Additional observations from a re-analysis of the deposited data

How the results depend on the processing

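With the requirement of a fold change of at least 1.5, 4477 genes were called for BI-D1870 against DMSO (1761 risen, 2716 fallen) and 115 for BI-D1870 with BCI against BI-D1870, where the main counts had no such requirement. Leaving out 1 library each gave 8381 to 9840 genes for the first comparison and 325 to 1229 for the second. The cause of these shifts was not tested, beyond the fewer samples that each such fit holds; where a group was left with 1 library, that library was assumed to vary like the other groups. With the replicate block the counts were 10061 and 1187, and the block changed no call of a named gene except TPX2 (-0.09, past the threshold). Of the log2 fold changes of named genes recomputed under the alternatives, 3165 kept their side of the threshold, 21 lost the call and 19 gained it. Of values called in either fit, 0 changed direction. Values near 0 that passed in neither fit could change sign and still count among the 3165, as for DUSP5 (0.03, from -0.03 to 0.13). Without mitochondrially encoded genes the split moved from 4867 risen and 5178 fallen to 5229 and 4816. At 3 counts, 0.0422 to 0.0562 CPM, a gene could not be told from absent, and 2 libraries per group limited the precision of each value.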
